A study of Mus musculus with 7 samples.

Results

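The genes described here are 10 interferon-stimulated effectors, Isg15, Usp18, Ifit1, Ifit2, Ifit3, Mx1, Rsad2, Bst2, Ifi27l2a and Ifi44. They were chosen by symbol from a table of 53465 genes, and all 10 were found and passed the filter on low counts. The table holds RNA-seq read counts from whole kidney tissue of MRL/lpr mice, an inbred strain in which a defective Fas gene accompanies spontaneous lupus-like disease with nephritis. A group of 4 mice had received AZD1152 (barasertib), a prodrug of an Aurora kinase B inhibitor, and a control group of 3 mice had received vehicle. All mice of both groups carried the MRL/lpr background, and there was no healthy strain among the samples. For dose, schedule, sex and age of the mice, the sources used here give nothing.

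Type I interferons act through a cell surface receptor whose Janus kinases phosphorylate STAT proteins. These join IRF9 to form a complex that binds interferon-stimulated response elements in the promoters of effector genes. Many effectors bind viral RNA, block viral budding or modify host proteins, and raised levels of such transcripts are a known feature of lupus in blood and kidney.

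The promoters are shown first because the response element is the feature by which these genes are grouped in textbooks. RefSeq windows (GRCm38.p6) were found for 7 of the 10 genes. The 250 bases before each start were searched on both strands for GAAA, any 2 bases and GAAA again, the core of the response element, which reads as TTTC repeats on the other strand. Isg15, Bst2, Rsad2, Ifit3 and Ifit1 held at least 1 match, so 5 of 7 genes did. Of all 27025 genes with a window of the same length, 3.46% held one. Each stretch below is written 5′ to 3′ on the strand of its gene, with the matched bases in capitals, and overlapping matches run together.
Isg15 (chr4:156200835-156200936, minus strand): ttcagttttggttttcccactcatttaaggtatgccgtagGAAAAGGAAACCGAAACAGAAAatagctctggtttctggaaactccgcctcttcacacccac
Bst2 (chr8:71537547-71537642, minus strand): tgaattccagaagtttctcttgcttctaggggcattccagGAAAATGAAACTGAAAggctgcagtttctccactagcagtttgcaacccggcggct
Rsad2 (chr12:26456523-26456612, minus strand): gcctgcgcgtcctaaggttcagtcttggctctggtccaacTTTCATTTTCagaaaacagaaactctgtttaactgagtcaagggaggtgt
Ifit3 (chr19:34583333-34583456, plus strand): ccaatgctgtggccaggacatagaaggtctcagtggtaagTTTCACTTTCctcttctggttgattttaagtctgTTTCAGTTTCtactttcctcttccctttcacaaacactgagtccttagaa
Ifit1 (chr19:34640745-34640853, plus strand): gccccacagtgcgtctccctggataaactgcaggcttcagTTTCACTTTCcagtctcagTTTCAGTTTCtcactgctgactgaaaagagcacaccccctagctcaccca

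Isg15 held 3 overlapping matches, the nearest beginning 66 bases before the start, and Bst2 held 2 overlapping matches. Ifit1 and Ifit3 each held 2 separate matches, and Rsad2 held 1. No match was found in these windows for Ifi44 or for either RefSeq start of Ifit2. A second motif, TTCNNNGAA, the core of the gamma-activated sequence, matched in Bst2, where it overlaps the first motif, and at 1 start of Ifit2. It matched in 7.02% of all windows. Of the wider list of interferon-induced effectors described later, 15 of 41 genes with a window held the response element core. So did 3 of 4 paralogs of the effectors with a window and 11 of 20 interferon ligand genes. The counts were 0 of 6 genes of ISG15 conjugation, 0 of 5 interferon receptor genes and 1 of 10 genes of signal transduction. A match is a description of letters, not a site of binding.

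**Figure D1:**
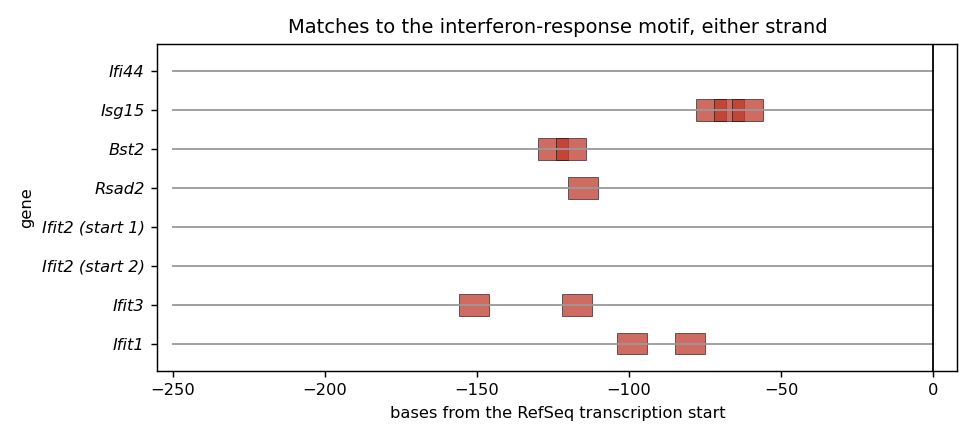
Positions of matches to the response element core (red boxes, 10 bases wide, either strand) in the 250 bases before the RefSeq start of 7 effector genes, with distance from the start in bases on the horizontal axis. Isg15 has 3 overlapping matches and Bst2 has 2, while Ifi44 and both starts of Ifit2 have none.

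The treated and control kidneys were set side by side to see how Aurora kinase B inhibition bears on transcripts in lupus-prone mice. Of the 10 effectors, Isg15, Bst2, Ifi27l2a and Ifi44 fell, by 1.80-fold to 2.35-fold, and 0 rose (edgeR quasi-likelihood test, Benjamini-Hochberg adjusted p under 0.05 over 15774 genes). Among all genes tested 4.81% were called lower and 3.02% higher. The other 6 effectors had negative estimates that did not pass the test, and 50.1% of all genes had a negative estimate. The median log2 fold change of the 10 was -0.86, beside 0.00 over all genes tested (-0.0006 unrounded). In 7 of the 10 every vehicle library lay above every AZD1152 library, as did 11.6% of all genes. In whole tissue, fewer cells of a type and less RNA per cell cannot be told apart. The count of called effectors was 2 without vehicle replicate 1, vehicle replicate 3 or AZD1152 replicate 4. In these fits 272, 163 and 336 of all genes were called lower, against 759 with all libraries. Without AZD1152 replicate 1 the count was 6, with 582 of all genes called lower. DESeq2 called 7 effectors, with 7.5% of all genes called lower. With limma-voom 6 were called, where 5.07% of all genes were lower and 8.36% differed in either direction.

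**Figure D2:**
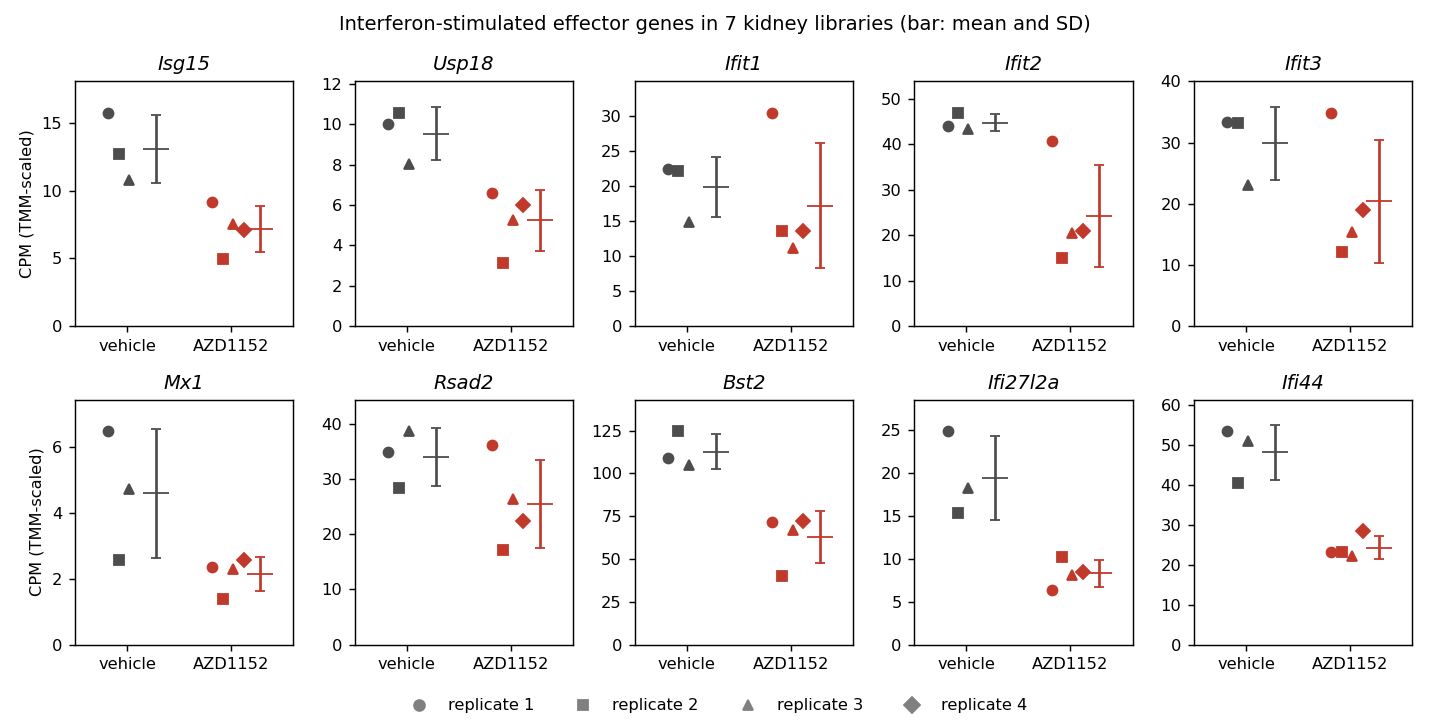
TMM-scaled CPM (vertical axis, from 0) of the 10 effectors in 3 vehicle and 4 AZD1152 kidney libraries. Symbols mark the replicate, and the bar beside each group is its mean and SD. AZD1152 replicate 1 (red circle) lies within or above the vehicle range for Ifit1, Ifit3 and Rsad2, and the groups are apart for Bst2, Ifi27l2a and Ifi44.

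Isg15 and Usp18 belong to the ISG15 pathway. Isg15 (ENSMUSG00000035692) encodes a ubiquitin-like protein that is attached to other proteins and is also secreted. Its gene lies on GRCm38 chromosome 4, 156199424 to 156200818, minus strand. Isg15 had 15.7, 12.7 and 10.8 CPM (counts scaled to library size with TMM factors) in vehicle replicates 1 to 3, and 9.14, 4.98, 7.54 and 7.09 CPM in AZD1152 replicates 1 to 4. The groups did not overlap, and AZD1152 replicate 2 was the lowest library. The vehicle mean was 13.1 ± 2.5 CPM (SD, n = 3) and the AZD1152 mean 7.18 ± 1.71 CPM (SD, n = 4). On the log2 scale Isg15 thus fell by 0.86 ± 0.21 (SE, edgeR test, adjusted p = 0.041). The call was lost when any 1 library other than AZD1152 replicate 1 was left out (edgeR test, adjusted p up to 0.132).

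Usp18 (ENSMUSG00000030107, chromosome 6, 121245906 to 121270917, plus strand) encodes the protease that removes ISG15 from its targets and that also restrains the type I interferon receptor. Its vehicle libraries had 10.02, 10.6 and 8.05 CPM and its AZD1152 libraries 6.59, 3.12, 5.24 and 6.02 CPM. The groups did not overlap, and again AZD1152 replicate 2 was lowest. The log2 fold change was -0.86 ± 0.24, almost the same as for Isg15, but it did not pass the test (edgeR test, adjusted p = 0.0608). DESeq2 gave an adjusted p of 0.009 for Usp18.

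The enzymes that attach ISG15 were described from a list of 6 genes, of which 3 fell, 0 rose and 3 did not pass the test. Among all genes tested 4.81% were called lower. Uba7, the activating enzyme, fell from 31.3 ± 3.74 to 13.2 ± 3.4 CPM (log2 fold change -1.24 ± 0.20, edgeR test, adjusted p = 0.0125). Ube2l6, the conjugating enzyme, fell by 0.80 ± 0.15 and Herc6, the main mouse ligase, by 0.98 ± 0.22 on the log2 scale (edgeR test, adjusted p = 0.0197 and 0.0347). Trim25, Herc3 and Arih1, ubiquitin ligases with other main roles, had log2 fold changes of 0.13, -0.47 and 0.08. Scaling by total counts turned the estimates of Trim25 and Arih1 negative. Leaving out vehicle replicate 3 ended the call of Uba7, leaving out vehicle replicate 1 that of Ube2l6, and Herc6 was no longer called without 5 of the 7 libraries (edgeR test, adjusted p = 0.0532, 0.059 and up to 0.0941).

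The Ifit genes encode tetratricopeptide-repeat proteins that bind viral RNA or each other, and they lie in a cluster on chromosome 19. None of Ifit1, Ifit2 and Ifit3 passed the test, and in all of them AZD1152 replicate 1 stood above the other treated libraries. Ifit1 (ENSMUSG00000034459, 34640871 to 34650009, plus strand), which binds the 5′ end of RNA that lacks cap methylation, had 22.4, 22.0 and 14.8 CPM in vehicle libraries. In AZD1152 libraries it had 30.4, 13.5, 11.1 and 13.6 CPM. The highest of all 7 values was thus a treated library, and the other treated libraries lay below the lowest vehicle library. Its log2 fold change was -0.20 ± 0.33 (edgeR test, adjusted p = 0.758), and -0.635 without AZD1152 replicate 1 (edgeR test, adjusted p = 0.0727). That library was singled out for its high values, so a lower estimate without it was fixed in advance. With each library left out in turn, 0 of 7 fits passed for Ifit1 (edgeR test, adjusted p up to 0.949).

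Ifit2 (ENSMUSG00000045932, 34550694 to 34576419, plus strand), a partner of the other Ifit proteins, had 44.0, 46.9 and 43.4 CPM with vehicle and 40.7, 14.9, 20.4 and 20.8 CPM with AZD1152. The vehicle libraries lay close together, and AZD1152 replicate 1 came just below them while the other treated libraries had less than 21 CPM. The log2 fold change was -0.88 ± 0.28 (edgeR test, adjusted p = 0.0892). Without AZD1152 replicate 1, again the library picked for its high value, it was -1.26 (edgeR test, adjusted p = 0.0191). Of the 7 fits of Ifit2 with 1 library left out, only this 1 passed (edgeR test, adjusted p up to 0.222). Ifit3 (ENSMUSG00000074896, 34583531 to 34588731, plus strand), which stabilises IFIT1, had 33.4, 33.2 and 23.0 CPM with vehicle and 34.8, 12.2, 15.5 and 19.1 CPM with AZD1152. Here too AZD1152 replicate 1 exceeded every vehicle library. The log2 fold change of Ifit3 was -0.55 ± 0.32 with all libraries and -0.94 without AZD1152 replicate 1 (edgeR test, adjusted p = 0.33 and 0.0391). For Ifit3 too, only this 1 of the 7 fits with 1 library left out passed (edgeR test, adjusted p up to 0.54).

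In the same cluster, Ifit3b and Ifit1bl1 also had AZD1152 replicate 1 as the highest treated library, whereas for Ifit1bl2 it was replicate 3. Ifit3b had 20.7, 18.1 and 17.5 CPM with vehicle and 24.4, 10.8, 10.9 and 17.004 CPM with AZD1152 (log2 fold change -0.25 ± 0.27, edgeR test, adjusted p = 0.621). Ifit3 and Ifit3b are near-identical in part: 31.7% of the 100-base windows of Ifit3 transcript sequence occur in Ifit3b, so their counts depend on how shared reads were assigned. For Ifit1 the shared part was 3.29% of windows, all with Ifit1bl2, and for Ifit2 it was 0. Ifit1bl1 and Ifit1bl2 were scarce, with means of 1.12 to 2.20 CPM in vehicle libraries.

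Mx1 and Rsad2 encode antiviral enzymes. Mx1 (ENSMUSG00000000386, chromosome 16, 97447035 to 97462907, minus strand) encodes a dynamin-like GTPase, and many laboratory mouse strains carry an inactive allele of it. It was the scarcest of the 10, with 21 to 111 counts a library. Mx1 had 6.47, 2.57 and 4.72 CPM with vehicle and 2.36, 1.39, 2.30 and 2.55 CPM with AZD1152, so the groups touched without overlapping. The log2 fold change of -1.09 ± 0.33 did not pass the test (edgeR test, adjusted p = 0.0788). With 1 library left out it ranged from -1.37 to -0.76 (edgeR test, adjusted p = 0.0343 to 0.252). For Mx1 1 of these 7 fits passed, the one without vehicle replicate 2, its lowest vehicle library. Its paralog Mx2 had 6.12, 3.43 and 5.00 CPM with vehicle and 6.05, 1.93, 1.92 and 2.34 CPM with AZD1152, and AZD1152 replicate 1 lay inside the vehicle range.

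Rsad2 (ENSMUSG00000020641, chromosome 12, 26442746 to 26456452, minus strand) encodes viperin, a radical SAM enzyme that makes a chain-terminating nucleotide. It had 34.9, 28.3 and 38.6 CPM with vehicle and 36.1, 17.2, 26.4 and 22.3 CPM with AZD1152. AZD1152 replicate 1 lay within the vehicle range and the other treated libraries lay below it. The log2 fold change was -0.41 ± 0.22 (edgeR test, adjusted p = 0.295), and -0.63 without AZD1152 replicate 1 (edgeR test, adjusted p = 0.0681). That library was again picked for its high value. With 1 library left out, 0 of 7 fits passed for Rsad2 (edgeR test, adjusted p up to 0.627).

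Bst2, Ifi27l2a and Ifi44 had the smallest adjusted p of the 10. Bst2 (ENSMUSG00000046718, chromosome 8, 71534255 to 71537456, minus strand) encodes tetherin, a membrane protein that holds budding virions on the cell surface and marks plasmacytoid dendritic cells and plasma cells. It had 109.0, 124.5 and 104.9 CPM with vehicle and 71.4, 40.3, 66.8 and 72.3 CPM with AZD1152. The groups were well apart, with AZD1152 replicate 2 lowest. Bst2 fell by 0.85 ± 0.18 on the log2 scale (edgeR test, adjusted p = 0.0278), and its call was lost without any vehicle replicate or without AZD1152 replicate 4 (edgeR test, adjusted p = 0.0515 to 0.082).

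Ifi27l2a (ENSMUSG00000079017, chromosome 12, 103442167 to 103443680, minus strand), a small hydrophobic protein of the ISG12 family, showed the largest fold change of the 10. It had 24.9, 15.3 and 18.3 CPM with vehicle and 6.35, 10.2, 8.17 and 8.43 CPM with AZD1152. AZD1152 replicate 1 was here the lowest library. Its mean fell from 19.5 ± 4.90 to 8.30 ± 1.59 CPM, which is 1.23 ± 0.20 lower in log2 units (edgeR test, adjusted p = 0.0133). Its neighbour and relative Ifi27 had a log2 fold change of -0.38 ± 0.10 (edgeR test, adjusted p = 0.0589), and Ifi27l2b had at most 7 counts in a library and was not tested.

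Ifi44 (ENSMUSG00000028037, chromosome 3, 151730922 to 151749960, minus strand) encodes a cytoplasmic protein induced by type I interferon. It had 53.4, 40.4 and 50.9 CPM with vehicle and 23.3, 23.2, 22.2 and 28.4 CPM with AZD1152. The treated libraries lay close together, at about 1 level, and all lay below the vehicle range. The mean fell from 48.2 ± 6.89 to 24.3 ± 2.79 CPM, and the log2 fold change of -0.99 ± 0.12 had the smallest adjusted p of the 10 (edgeR, 0.00951). Ifi44l, its paralog on the same chromosome, fell by 1.2 ± 0.16 on the log2 scale (edgeR test, adjusted p = 0.00951), from 15.8 ± 2.02 to 6.88 ± 1.16 CPM. The calls of Ifi27l2a and Ifi44 held without any 1 of the 7 libraries (edgeR test, adjusted p = 0.0161 to 0.0471 and 0.0143 to 0.0373).

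**Figure D3:**
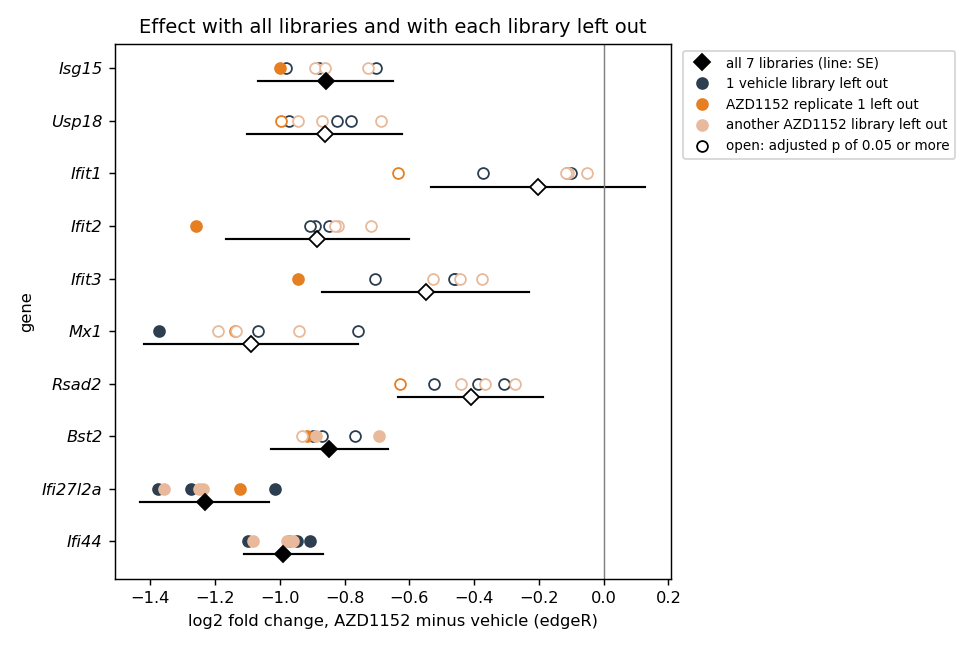
Log2 fold change of each effector (horizontal axis, AZD1152 minus vehicle, edgeR) with all 7 libraries (diamond, line for the SE) and with each library left out (circles), where filled symbols passed an adjusted p of 0.05. Leaving out AZD1152 replicate 1 (orange) moves Ifit1, Ifit2, Ifit3 and Rsad2 to lower values, and all circles of Ifi27l2a and Ifi44 are filled.

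The treated libraries thus differed among themselves by gene. Relative to the vehicle mean on the log2 scale, the median over the 10 effectors was -0.50 in AZD1152 replicate 1, -1.31 in replicate 2, -0.85 in replicate 3 and -0.68 in replicate 4. In replicate 1 the effectors ranged from 0.64 for Ifit1 to -1.57 for Ifi27l2a, while in replicate 3 they ranged from -0.35 to -1.21. AZD1152 replicate 1 was the highest treated library for 6 of the 10, and replicate 2 the lowest for 7. In Ifit1, Ifit3 and Rsad2 replicate 1 alone among the treated libraries reached the vehicle range, a pattern that 3.8% of all genes tested showed. It was shown by 3 of 6 tested paralogs (Ifit1bl1, Ifit3b and Mx2) and by 3 of 50 other interferon-induced effectors (Oasl1, Cmpk2 and Ogfr). This pattern was noticed after the values were seen and was not tested.

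**Figure D4:**
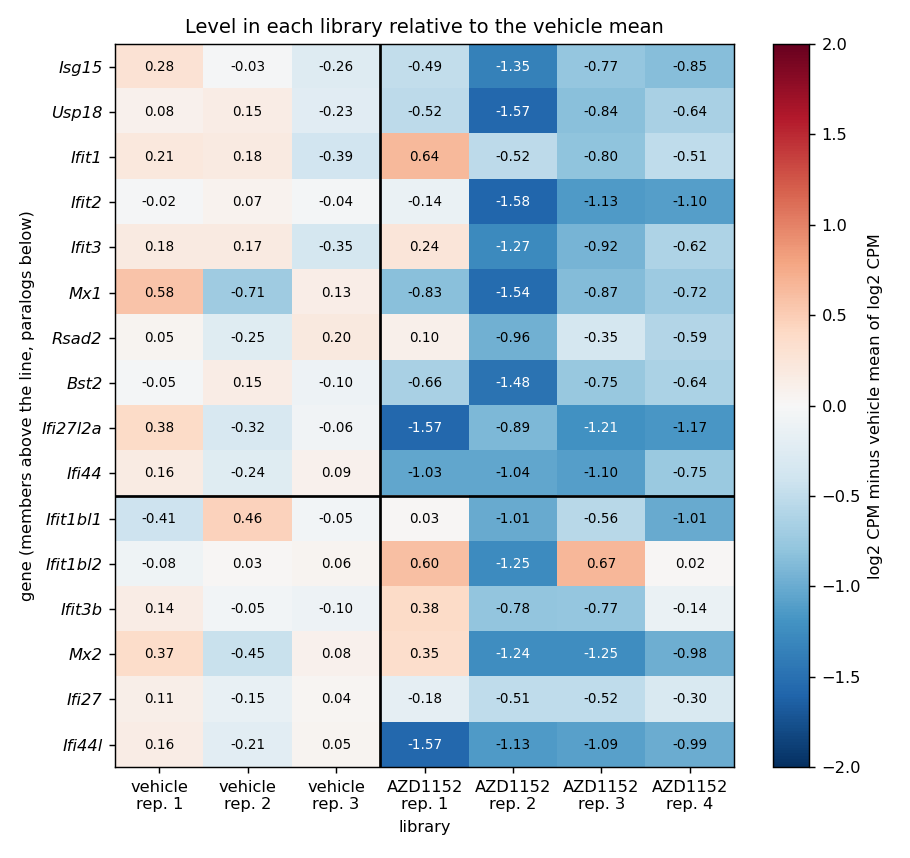
Log2 CPM of each library minus the vehicle mean of log2 CPM (colour and number) for the 10 effectors and 6 tested paralogs. In the column of AZD1152 replicate 1 the Ifit genes, Rsad2 and Mx2 are near or above 0, from -0.14 for Ifit2 to 0.64 for Ifit1, while Ifi27l2a, Ifi44 and Ifi44l are at -1.57, -1.03 and -1.57.

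Levels of different genes were compared per kilobase of merged exon length. In vehicle kidneys Bst2 was the most abundant effector, with 124.9 ± 11.5 CPM per kilobase (SD, n = 3). Ifi27l2a followed with 42.1 ± 10.6, and Isg15 and Ifit3 had 17.3 ± 3.31 and 17.1 ± 3.41 CPM per kilobase with overlapping ranges. Ifit2 had 11.4 ± 0.475 CPM per kilobase. Ifi44, Rsad2 and Ifit1 overlapped each other at 7.86, 7.83 and 7.44 CPM per kilobase. Usp18 had 3.42 and Mx1 1.21 CPM per kilobase, and each of these lay below all libraries of the gene before it. In AZD1152 kidneys Bst2 was still first with 69.4 ± 16.7 and Mx1 last with 0.568 ± 0.136 CPM per kilobase (SD, n = 4), while Ifit1, with 6.45 ± 3.35, and Ifi44, with 3.96 ± 0.455, overlapped.

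The interferons themselves were barely detected. Of 21 ligand genes 18 had 0 counts in all 7 libraries, among them every interferon alpha gene of the list, and 3 counts, the most that a count of 0 allows, equal up to 0.204 CPM in the shallowest library. Ifnb1 and Ifnk had 1 count each over all libraries. Ifng, the type II interferon of T and NK cells, had 2 to 14 counts a library and was not tested. Differences in the ligands were thus not tested.

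Receptor genes all passed the filter on low counts. Of 6 receptor genes 1 fell, 0 rose and 5 did not pass the test, beside 4.81% of all genes called lower. Ifnar1 and Ifnar2, the chains of the type I receptor, had log2 fold changes of -0.11 ± 0.08 and -0.25 ± 0.09 (edgeR test, adjusted p = 0.415 and 0.129). Ifngr1, the ligand-binding chain of the type II receptor, fell by 0.48 ± 0.12 (edgeR test, adjusted p = 0.0469), and this call was lost without 5 of the 7 libraries. Ifngr2, Ifnlr1 and Il10rb had -0.38, -0.28 and 0.24.

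Among 11 genes of signal transduction 7 fell, 0 rose and 4 did not pass the test, beside 4.81% of all genes called lower. Stat2 and Irf9, which join the complex that binds the response element, were among the 7. Stat2 fell by 0.75 ± 0.10 and Irf9 by 0.58 ± 0.09 on the log2 scale. Irf7, which amplifies interferon production, fell from 70.1 ± 11.9 to 32.9 ± 3.19 CPM. Irf1, Irf5 and Irf8, other interferon regulatory factors, fell by 0.91, 0.84 and 0.68. The kinases Jak1, Jak2 and Tyk2 and the constitutive factor Irf3 had 0.10, -0.20, -0.29 and -0.04, and the estimate of Jak1 was negative when libraries were scaled by total counts. Irf3 changed sign when vehicle replicate 3 was left out, and also when AZD1152 replicate 2 was. Reads of Irf5 are uncertain in part, since 14.1% of its merged exons overlap Tnpo3 on the other strand. The count of lower transduction genes was 4 without vehicle replicate 1 and 3 without vehicle replicate 3. In these fits 272 and 163 of all genes were called lower, against 759 with all libraries.

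Feedback inhibitors other than Usp18 gave 1 lower gene of 8, where 4.81% of all genes tested were called lower. DESeq2 called 4 of the 8 lower, beside 7.5% of all genes tested. Socs1, which blocks Janus kinases, fell from 7.29 ± 3.18 to 2.78 ± 0.983 CPM (log2 fold change -1.38 ± 0.33, edgeR test, adjusted p = 0.0402). It was no longer called when any 1 library other than AZD1152 replicate 1 was left out (edgeR test, adjusted p up to 0.0978). Socs3, of the same family, had -0.90 ± 0.33 (edgeR test, adjusted p = 0.129), and Ptpn6 (the phosphatase SHP-1) had -0.48 ± 0.13 (edgeR test, adjusted p = 0.0528). Pias2 had a positive estimate, 0.21 ± 0.08 (edgeR test, adjusted p = 0.133). Every AZD1152 library of Pias2 lay above every vehicle library, as did 11.2% of all genes tested.

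**Figure D5:**
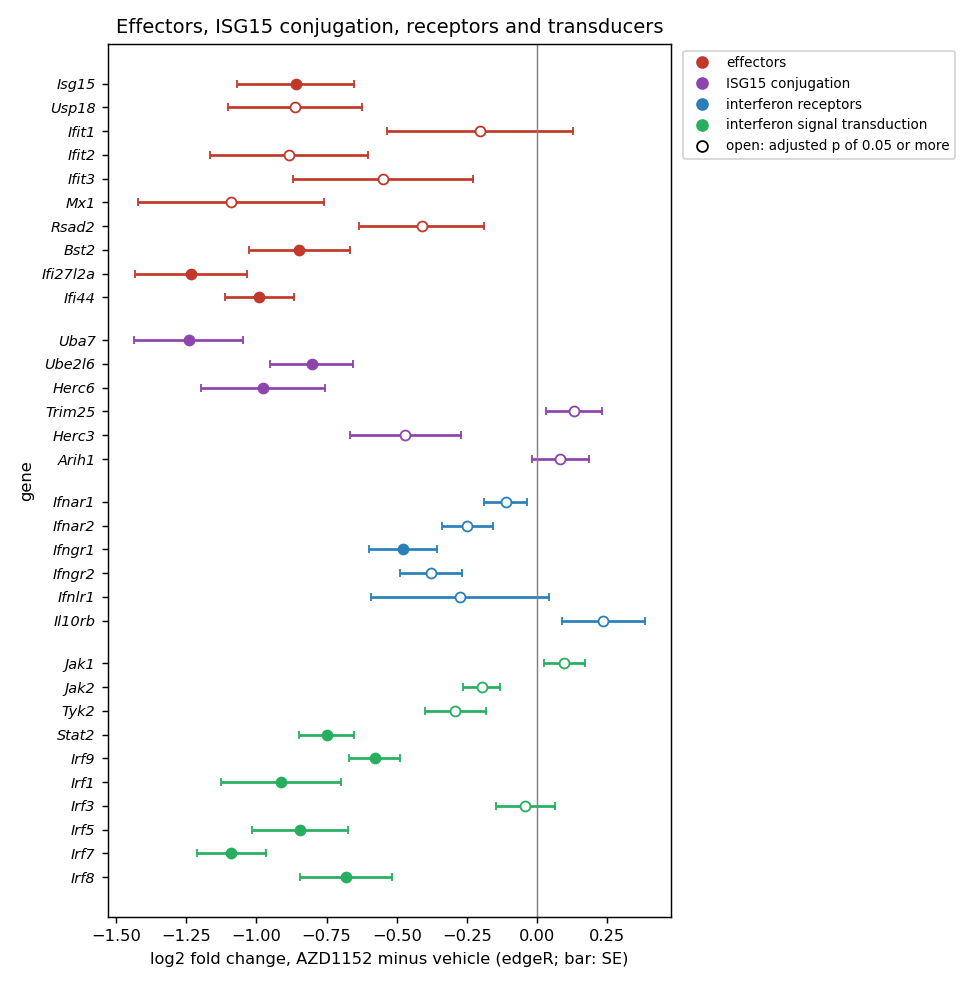
Log2 fold change with SE (horizontal axis, AZD1152 minus vehicle, edgeR) for the 10 effectors, 6 genes of ISG15 conjugation, 6 interferon receptor genes and 10 genes of signal transduction, where filled symbols passed an adjusted p of 0.05. The filled symbols are 4, 3, 1 and 6 in these groups, all at negative values.

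A wider list of 50 other interferon-induced effectors had a median log2 fold change of -0.855, beside -0.861 for the 10. In it 37 fell, 0 rose and 13 did not pass the test, beside 4.81% of all genes called lower. The count was 24 without vehicle replicate 1 and 20 without vehicle replicate 3. In these fits 272 and 163 of all genes were called lower, against 759 with all libraries. The members with the smallest p were Oasl2, Sp100, Rnf213, Gbp3 and Epsti1. Oasl2, of the oligoadenylate synthetase family, had -1.48 ± 0.13 and Gbp3, a guanylate-binding protein, -1.51 ± 0.20 (edgeR test, adjusted p = 0.00374 and 0.00951). Sp100, of nuclear bodies, and Rnf213, a large ubiquitin ligase, fell by 0.998 ± 0.096 and 0.82 ± 0.08 on the log2 scale, and Epsti1 fell by 1.07 ± 0.14.

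Genes whose levels over the 7 libraries were most like the mean of the 10 effectors were sought among 12205 genes averaging 2 CPM or more. By Pearson's r on log2 CPM they were Npat (0.985), Rrm2 (0.985), Helz2 (0.982), Adar (0.981) and Brip1 (0.978). The points are the same 7 libraries in 2 groups, so these values are descriptions that share treatment and library. Helz2, a helicase, and Adar, the RNA-editing adenosine deaminase, are themselves interferon-induced. Npat, Rrm2 and Brip1 act at histone gene transcription, nucleotide supply and DNA repair. Of the 5, Helz2, Adar and Brip1 fell (log2 fold changes of -0.63 ± 0.14, -0.45 ± 0.11 and -1.003 ± 0.20), and Npat and Rrm2 did not pass the test (edgeR test, adjusted p = 0.0701 and 0.0512). The calls of Helz2 and Adar were lost without 5 and 6 of the 7 libraries and that of Brip1 without 3.

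Between the 2 groups, macrophage and T cell markers changed in the same direction as the effectors. Of 13 macrophage markers 9 fell and 0 rose (median log2 fold change -0.97), while 4.81% of all genes tested were called lower. The summed level of macrophage markers was 991 to 1361 CPM with vehicle and 462 to 713 CPM with AZD1152. Of 12 tested T cell markers 7 fell and 0 rose, with a median of -1.44, and sums of 105 to 172 and 50.3 to 78.1 CPM. No marker of either list was at 0 in all libraries. The part of these cells in the lower effector levels was not tested. In B and plasma cells (10 tested) and neutrophils (8 tested) edgeR called 0 markers, although 3 and 2 had an unadjusted p under 0.05, while DESeq2 called 2 and 1. Their sums were 345 to 1018 and 288 to 729 CPM for B and plasma cells, and 29.1 to 35.3 and 12.6 to 33.8 CPM for neutrophils, so the groups overlapped.

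Markers of plasmacytoid dendritic cells, which make type I interferon and carry Bst2, had a median log2 fold change of -0.12. Of 9 tested, 6 had negative estimates, among them Runx2 at -1.076 ± 0.325 (edgeR test, adjusted p = 0.0775). By edgeR 0 were called lower and 1 higher, beside 4.81% and 3.02% of all genes tested. DESeq2 called 1 lower and 2 higher, beside 7.5% and 6.02% of all genes tested. The gene that edgeR called was Siglech, a lectin of these cells. Siglech had 0.524, 0.514 and 0.278 CPM with vehicle and 1.27, 1.66, 1.40 and 0.850 CPM with AZD1152, from 5 to 25 counts a library (log2 fold change 1.55 ± 0.37, edgeR test, adjusted p = 0.0387). The summed level, 975 to 1499 and 1453 to 1809 CPM, was mostly Klk1, which kidney tubules also express. Of 10 proximal tubule markers 4 rose and 0 fell, beside 3.02% of all genes called higher. Their sums were 10482 to 12565 CPM with vehicle and 14793 to 17671 CPM with AZD1152, so the tissue was kidney by its markers. In 8 markers of other nephron segments and 9 of endothelium edgeR called 0, although 1 each had an unadjusted p under 0.05, while DESeq2 called 0.

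Library totals ran from 14692113 to 17036862 counts. Of all genes tested 476 rose and 759 fell, so that 38.5% of the calls were higher, and the share was 13.5% when libraries were scaled by total counts alone. That scaling moved the median of all genes to -0.15 and the median of the 10 effectors to -1.001, which is -0.85 relative to all genes. Among the effectors, Usp18 alone shared exonic positions with another annotated gene, the antisense Gm44148, which had 12 counts over all libraries. Isg15, Ifit2, Rsad2, Bst2, Ifi27l2a and Ifi44 shared no 100-base window with another gene.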

How the data were processed

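RNA-seq was made from kidney tissue of 3 vehicle and 4 AZD1152 mice, 1 library each. Per the labels' protocols, oligo(dT)-selected mRNA was fragmented, randomly primed and amplified by PCR. The submitters' processing notes name CASAVA, HISAT2 2.0.5, DESeq2, DESeq and GRCm38. The authors deposited whole-number read counts per gene without normalization. Read counter, strand setting and annotation release: not given in the sources used here. Overlapping genes on opposite strands could therefore not be told apart. The series text gives separate mice.

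Names, coordinates and exon lengths came from GENCODE mouse release M21 (GRCm38), which named 53274 of 53465 genes, and 204 of 205 list genes matched. Counts were filtered (filterByExpr), scaled with TMM and tested with edgeR 4.0.16 (R 4.3.3), group alone, two-sided. The Benjamini-Hochberg threshold was 0.05 over 15774 genes. Each SE is the size of the fold change (log2) over the root of its F statistic. A prior count of 2 went into log2 CPM per library. The steps were tested on simulated data, where 29% of 1.5-fold, 69.3% of 2-fold and 93.3% of 4-fold changes were called. Of the calls 7.01% were false. Fewer genes were changed in the simulation than were called in the data, so these rates need not hold for the data. The libraries carried no molecular identifiers, so the 3-count floor covers counting error only. Over 21 pairs of libraries, chi-square per degree of freedom was at least 10.5, above sampling noise.

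Members and lists were chosen with earlier results of these data known. Named were all 10 effectors, the genes of the receptor, transduction, ISG15 conjugation and paralog lists, up to 5 genes of other lists with the smallest p, the 5 most alike genes, and, after values were seen, Oasl1, Cmpk2, Ogfr and Klk1. Alternatives were RLE, upper-quartile and total-count scaling, 2 other filters, DESeq2 1.42.0, limma-voom 3.58.1, a replicate block and each library left out. Protein sequences were not used here, and 1 gene counted in the signal transduction list is not reported here.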

Additional observations from a re-analysis of the deposited data

Results flagged for a closer look

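In 4 of 55 genes examined, 1 AZD1152 library lay further from the other 3 than Dixon's 95% limit for the gap over the group's range. Chance exceeds that limit in about 1 of 20 groups. Oasl1 and Cmpk2 joined the 55 after values were seen, so the count cannot be set against that rate. AZD1152 replicate 1 was the high library for Ifit1 (30.4 CPM, a gap of 0.871 of the range), Mx2 (6.05 CPM, 0.898), Socs1 (4.24 CPM, 0.831) and Oasl1 (13.6 CPM, 0.83). The 3 vehicle libraries were not examined with this measure.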

How the results depend on the processing

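All 10 effectors kept a negative log2 fold change under all 15 alternatives, and their median ranged from -0.98 to -0.71 with 1 library left out. Of the 10 effectors 4 were called lower, against 7 with DESeq2, 7 with no filter on low counts, and 2 to 6 with 1 library left out. Other interferon-induced effectors gave 37 lower, 20 to 35 with 1 library left out, and signal transduction 7, with 3 to 7. Over all genes, 759 fell and 476 rose. Total-count scaling gave 1482 and 232, DESeq2 1183 and 950, and no filter on low counts 973 and 558. Leaving out 1 library gave 163 to 619 and 60 to 475. With the replicate number as a block the counts were 1 effector (Ifi44), 10 other effectors, 3 transduction genes, and 146 lower and 63 higher genes. The sources used here do not say what the numbers mark. Deviations of same-numbered libraries correlated at -0.288, 0.209 and -0.119, beside -0.232 to 0.299 for libraries with different numbers. Whether same-numbered libraries share a litter or day was not tested. Estimates changed sign for Trim25 (-0.015), Arih1 (-0.064) and Jak1 (-0.053) under total-count scaling, for Arih1 (-0.026) and Irf3 (0.026) without vehicle replicate 3, for Irf3 (0.007) without AZD1152 replicate 2, and for Ifit1bl2 (-0.03) without AZD1152 replicate 3, and 0 of these was called. With 1 library left out they ranged from -0.03 to 0.491 for Ifit1bl2, -0.026 to 0.196 for Arih1 and -0.093 to 0.026 for Irf3. The cause was not tested. Depth limits the ligands, which were too scarce to be tested.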
